A study of Homo sapiens with 12 samples.

Results

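Death receptors and the proteins that bind their tails were followed in A549 cells, a human lung adenocarcinoma line, by their transcripts. The set was chosen by gene symbol and holds 10 genes of the 26334 in the count tables: the receptors FAS, TNFRSF10A, TNFRSF10B, TNFRSF10C, TNFRSF10D and TNFRSF1A, the ligand TNFSF10, and FADD, CFLAR and RIPK1, which act inside the cell. The cells had been infected with a lentivirus that delivered either the "non target" construct (shControl) or one targeting RNF113A, the gene of a spliceosome-associated ubiquitin ligase (shRNF113A). They were then selected with puromycin at 1 µg/ml for 4 days, and grown in DMEM with serum. Each kind of cell was left untreated or given Cisplatin, a DNA-crosslinking drug, at 25 µg/ml for 20 h. This dose is the one in the labels; the unit named for Cisplatin in other experiments of the study is µM, so the dose is uncertain. Every one of the 4 conditions had 3 biological replicates, which makes 12 libraries of poly(A) RNA. All 4 groups thus carried a lentiviral shRNA and had passed puromycin selection, and how many distinct RNF113A shRNAs these libraries represent was not given in the sources used here.

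Death receptors are membrane proteins of the TNF receptor superfamily whose cytoplasmic death domain gathers adaptors once a ligand has clustered them. FAS and the TRAIL receptors TNFRSF10A and TNFRSF10B recruit the adaptor FADD, which brings in caspase-8 to start apoptosis, while c-FLIP, the product of CFLAR, takes a place in that complex and restrains the caspase. The TNF receptor TNFRSF1A uses TRADD and the kinase RIPK1 instead and can signal survival through NF-κB or death. FAS and TNFRSF10B are known p53 targets, so DNA-damaging drugs are known to raise them.

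The libraries held 33859097 to 56071514 read pairs, of which 26220526 to 45721152 were counted on the strand of a gene. RNF113A, the targeted gene, stood at 19.5 to 20.3 CPM (counts scaled to a common library size, TMM factors included) in untreated control cells and at 15.3 to 16.8 CPM in untreated depleted cells, a log2 difference of −0.31 (SE 0.09, adjusted p = 0.0247, edgeR's quasi-likelihood test with Benjamini-Hochberg adjustment, which gives every adjusted p here). In Cisplatin-treated cells the ranges were 27.7 to 31.5 and 24.3 to 29.9 CPM and the log2 difference was −0.14 (adjusted p = 0.233), so the depletion was not detected there at the RNA level. Replicate 2 of shControl stood apart from replicates 1 and 3 in both drug conditions, with a chi-square per gene of 73.2 to 111 against 9.23 and 13.6 between replicates 1 and 3, and results that rest on it are given with and without it. The keratin genes KRT8, KRT18 and KRT7 ran from 1113 to 7450 CPM. The other epithelial genes listed were lower, EPCAM at 3.66 to 97.6 CPM and CDH1 at 32.1 to 197 CPM. The alveolar type II genes SFTPC, SFTPB and SFTPA1 and the immune genes PTPRC and CD3E had at most 5 counts in any library, while CD14 had 37 to 171. NKX2-1, also listed for alveolar type II cells, had 2 to 20 counts, and the endothelial genes PECAM1, VWF and CDH5 had at most 12, 10 and 18. Of the fibroblast genes listed, COL1A1 had 108 to 1368 counts, while COL1A2, PDGFRB and DCN had at most 18 in any library. The fibroblast genes summed to 5.94 to 35.4 CPM in untreated and 7.05 to 14.5 CPM in treated control cells. In depleted cells they summed to 3.35 to 5.74 CPM untreated and 5.97 to 6.55 CPM treated. Since these are bulk samples, fewer expressing cells and less RNA per cell cannot be told apart.

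Cisplatin changed most genes of the set in both kinds of cells, as it did most genes tested. The count changed by the depletion depended on replicate 2 of shControl. A gene counts as changed at an adjusted p under 0.05, and as called when its fold change was also at least 2. In control cells 7 of the 10 genes changed upon Cisplatin, 6 up and 1 down, against a background of 55.0% of the 15352 genes tested, and 4 were called against 19.8%. In depleted cells 8 changed, 7 up and 1 down, against 60.2%, and 5 were called against 23.1%. The median log2 fold change of the set was 0.60 in control and 1.02 in depleted cells, beside −0.01 and 0.06 over all genes tested. Upon depletion 2 genes changed in untreated cells (background 27.4%) and none was called (8.66%), while 2 changed (42.9%) and 1 was called (12.3%) in Cisplatin-treated cells. With all libraries the 2 counts of genes changed by the depletion lay below the background shares. Without replicate 2 of shControl in both conditions they lay above: 6 changed in untreated cells against 41.8% and 7 in treated cells against 55.6%. In untreated cells 1 was then called against 10.1%.

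The libraries of the compared groups did not overlap for 5 of the 10 genes upon Cisplatin in control cells (background 56.1%) and for all 10 in depleted cells (74.2%). For the depletion the same held for 4 genes in untreated cells (43.3%) and 4 in treated cells (57.7%). In the model that pools both kinds of cells, 8 of 10 changed with Cisplatin against 66.8%, and in the model that pools both drug conditions 2 of 10 changed with the depletion against 47.5%, TNFRSF10D upward (log2 0.84, SE 0.22, adjusted p = 0.00673) and TNFRSF1A downward (log2 −0.17, SE 0.06, adjusted p = 0.0277). The effect of Cisplatin itself differed between depleted and control cells for 2 of the 10 genes, TNFRSF10D and TNFRSF10B, against 4.25% of all genes changed in that test, and 1 of them, TNFRSF10D, was called against 1.28%.

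**Figure D1:**
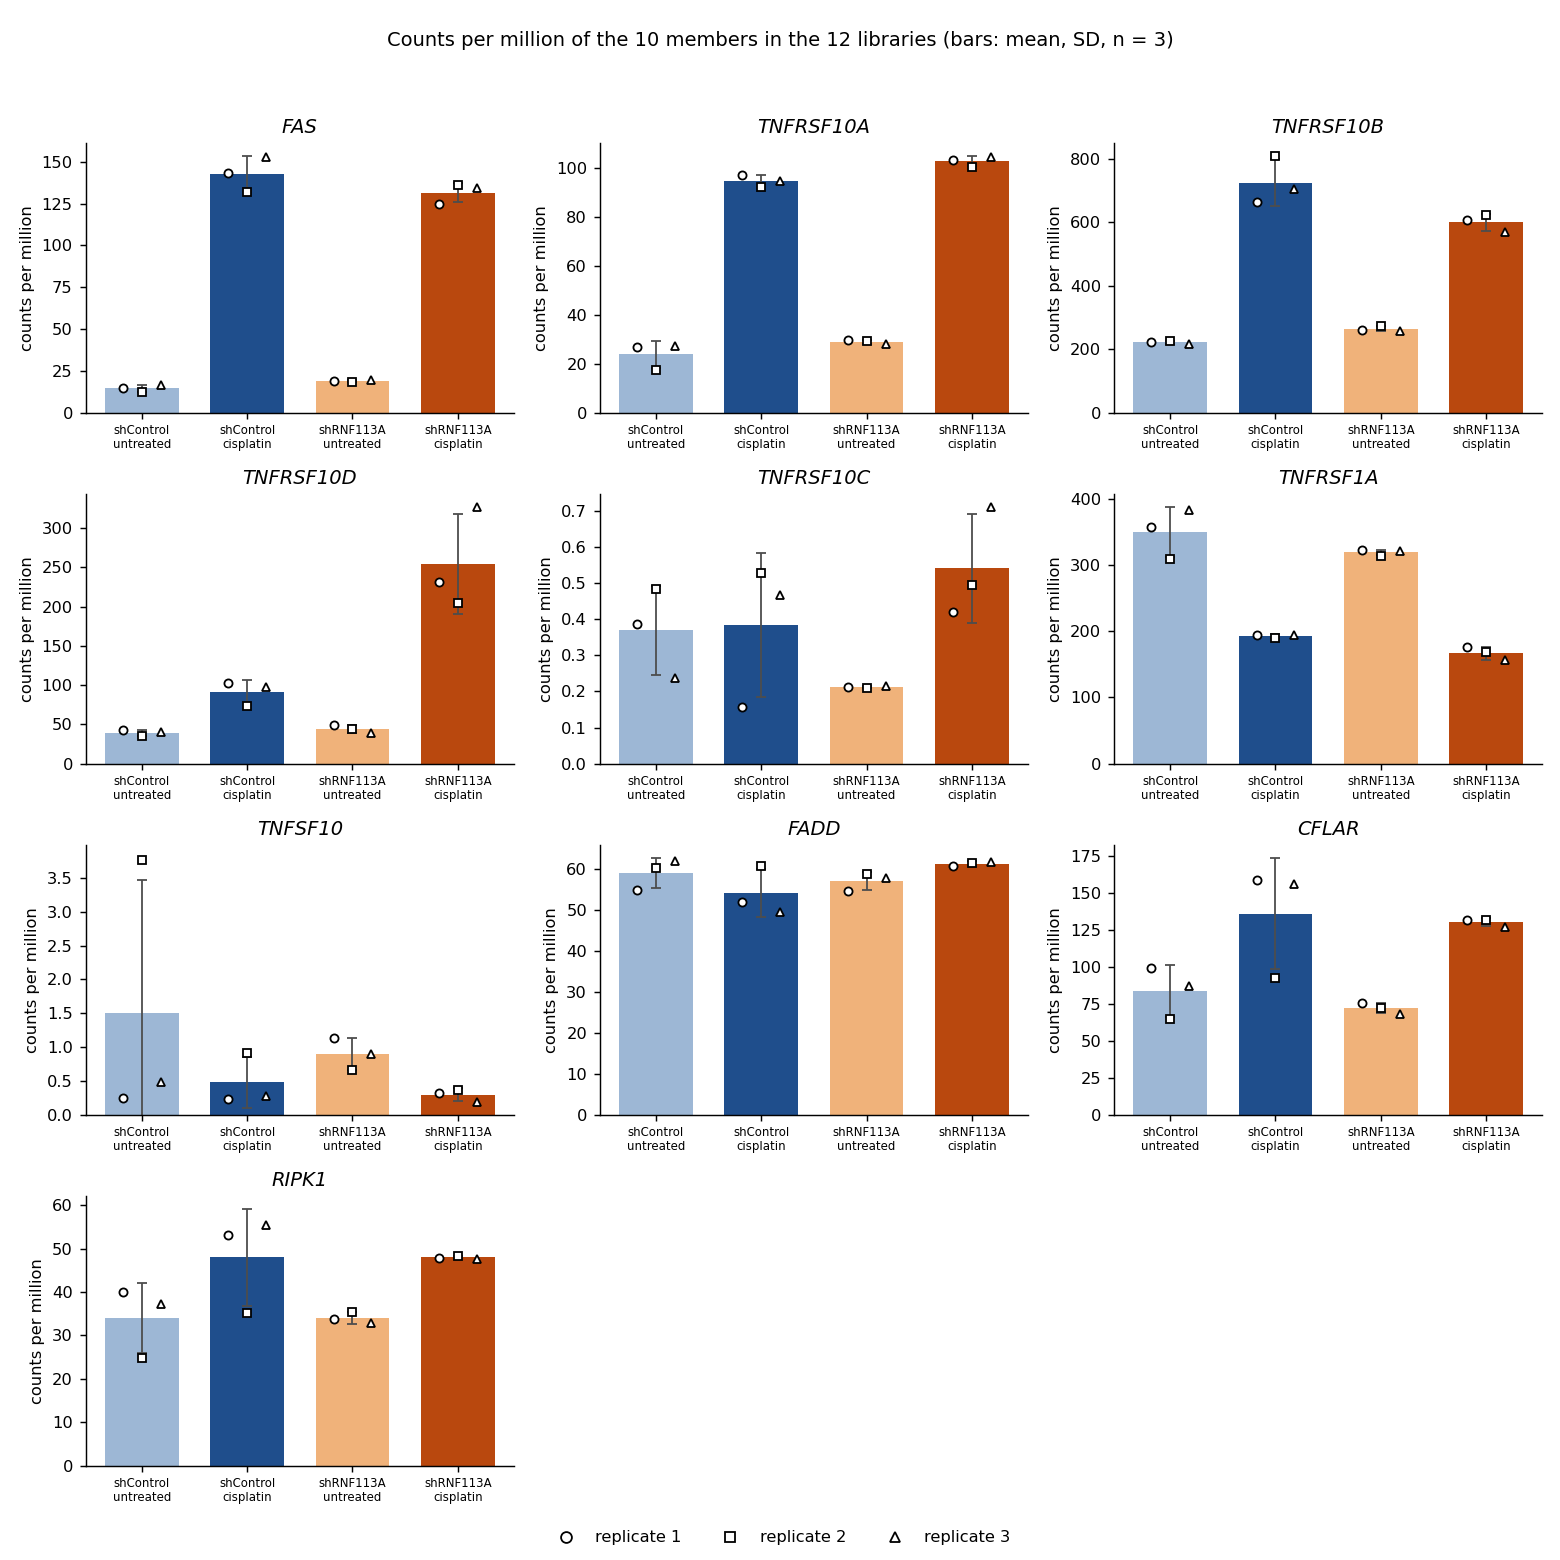
CPM (linear axis, 1 panel per gene) in the 12 libraries by condition; symbols mark replicates 1, 2 and 3, bars the mean and whiskers the SD of 3 libraries, cut at 0. FAS, TNFRSF10A and TNFRSF10B rise with Cisplatin in both kinds of cells, TNFRSF10D reaches 204 to 327 CPM in treated depleted cells against 73.3 to 103 CPM in treated control cells, and TNFRSF1A falls.

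FAS, the receptor for FAS ligand, lies on chromosome 10 (GRCh37 chr10:90750414-90775542, plus strand) and rose more than any other gene of the set. Its level was 14.7, 12.5 and 16.8 CPM in replicates 1, 2 and 3 of untreated control cells and 143, 132 and 153 CPM in the treated ones. In depleted cells it went from 19, 18.3 and 19.6 CPM to 125, 136 and 134 CPM. The groups were far apart in both kinds of cells, with a 9.75-fold rise in control cells (log2 3.28, SE 0.11, adjusted p = 9.79e-10) and a 6.94-fold rise in depleted cells (log2 2.79, SE 0.10, adjusted p = 3.49e-09). Untreated depleted cells held 1.29-fold more FAS RNA than untreated control cells (log2 0.37, SE 0.10, adjusted p = 0.0172), and the 2 groups did not overlap. After Cisplatin the depleted cells were not shown to differ (log2 −0.12, 95% interval −0.31 to 0.07). All 95% intervals given here are approximate, from the SE and the normal quantile, and are narrower than the test implies. The difference between the 2 Cisplatin effects was −0.49 (SE 0.14, adjusted p = 0.0683) with all libraries and −0.44 (adjusted p = 0.0118) without replicate 2 of shControl.

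The 63-nt cassette exon of FAS encodes the membrane-spanning segment, and transcripts without it make a soluble receptor. It lies at chr10:90770510-90770572 (GRCh37, plus strand), keeps the reading frame, and is part of 3 of the 4 protein-coding transcripts listed, of 220 to 335 codons, while the transcript without it has 314. It is shown because it separates the membrane-bound from the soluble form; capitals mark the exon and lower case 15 nt of intron on each side.
FAS 63-nt exon: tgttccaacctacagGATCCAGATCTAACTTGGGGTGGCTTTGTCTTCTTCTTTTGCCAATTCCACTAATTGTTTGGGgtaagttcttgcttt

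The exon was nearly always included. Its inclusion level, the share of transcripts that hold the exon after correction for length, was 0.954, 1.000 and 0.936 in untreated control cells and 0.955, 0.970 and 0.942 in treated ones (the order of libraries in the splicing tables is not named). In depleted cells it was 0.982, 0.932 and 1.000 before and 0.969, 0.963 and 0.961 after Cisplatin. None of the 4 comparisons passed the test (adjusted p from 0.729 to 0.937), and reads of the skipped form numbered 0 to 4 per untreated library and 10 to 32 per treated library.

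The intracellular members moved less. FADD, the adaptor of FAS and the TRAIL receptors (chr11:70049269-70053496, plus strand), had 54.7, 60.1 and 61.7 CPM in untreated control cells, 51.9, 60.6 and 49.4 CPM in treated ones, 54.6, 58.6 and 57.7 CPM in untreated depleted cells and 60.6, 61.4 and 61.6 CPM in treated depleted cells. The log2 effect of Cisplatin was −0.12 (95% interval −0.29 to 0.04) in control and 0.10 (−0.06 to 0.27) in depleted cells, and neither passed the test. The depletion difference was −0.05 (−0.21 to 0.12) without and 0.18 (0.02 to 0.34, adjusted p = 0.0986) with the drug. With replicate 2 of shControl left out the latter became 0.27 (adjusted p = 0.00475).

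RIPK1, the kinase that links TNFRSF1A to both survival and death signalling (chr6:3064225-3115421, plus strand), had 40.0, 24.8 and 37.2 CPM in untreated control cells and 53.2, 35.2 and 55.4 CPM in treated ones. In depleted cells it went from 33.8, 35.4 and 32.7 CPM to 47.9, 48.4 and 47.6 CPM. Replicate 2 of shControl was the lowest library in both of its groups and made the control groups overlap, whereas the depleted groups did not. The rise was 1.41-fold in each kind of cell (log2 0.50, SE 0.18, adjusted p = 0.0321 in control and 0.0293 in depleted cells). These calls were lost when single libraries were left out: untreated replicate 2, or treated replicate 1 or 3, in control cells (log2 0.31 to 0.42, adjusted p 0.0933 to 0.11), and each of the 6 libraries in depleted cells (adjusted p 0.0565 to 0.0828). With replicate 2 of shControl absent from both conditions they held, at log2 0.49 and 0.50 (adjusted p = 3.67e-05 and 3.16e-06). The depletion left RIPK1 at log2 0.00 in untreated cells (95% interval −0.35 to 0.35) and at 0.00 in treated cells (−0.35 to 0.35); without replicate 2 of shControl both values were −0.18 (adjusted p = 0.0469 and 0.0354).

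CFLAR, which encodes c-FLIP (chr2:201980827-202041410, plus strand), rose with Cisplatin in both kinds of cells. It had 99.4, 64.8 and 87.3 CPM in untreated control cells and 159, 92.8 and 156 CPM in treated ones, and replicate 2 was again the lowest of each group. The depleted groups were tighter, with 75.4, 72.2 and 68.5 CPM before and 132, 132 and 127 CPM after Cisplatin. The rise was 1.63-fold in control cells (log2 0.70, SE 0.19, adjusted p = 0.00651) and 1.81-fold in depleted cells (log2 0.86, SE 0.19, adjusted p = 0.00163), although the control groups overlapped. The depletion difference was −0.22 (95% interval −0.58 to 0.15) in untreated and −0.06 (−0.42 to 0.30) in treated cells. When replicate 2 of shControl was left out these were −0.37 (adjusted p = 0.00049) and −0.28 (adjusted p = 0.00317), so whether CFLAR was lower upon depletion rested on that library.

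Long and short c-FLIP differ in the exons they use, and the exons below are shown because their relative coverage moved. The exons of 83, 55 and 50 nt follow each other in the long form of 480 codons; the 83-nt exon is in 11 of 17 protein-coding transcripts and each of the others in 7. Capitals mark the exon and lower case 15 nt of intron on each side (GRCh37, plus strand, at chr2:202005080-202005162, chr2:202010101-202010155 and chr2:202013726-202013775).
CFLAR 83-nt exon: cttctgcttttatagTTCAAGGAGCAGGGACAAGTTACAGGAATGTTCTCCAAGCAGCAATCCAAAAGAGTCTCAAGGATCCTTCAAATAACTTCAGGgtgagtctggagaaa
CFLAR 55-nt exon: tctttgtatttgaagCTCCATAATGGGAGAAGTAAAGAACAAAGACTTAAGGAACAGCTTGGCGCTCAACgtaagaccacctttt
CFLAR 50-nt exon: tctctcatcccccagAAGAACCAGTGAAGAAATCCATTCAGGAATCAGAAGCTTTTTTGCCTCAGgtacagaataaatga

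The splicing tables treat the 83-nt exon as exclusive to the 55-nt or the 50-nt exon, so the level given is the share of length-corrected reads that fall on the 83-nt exon of such a pair. For the pair with the 55-nt exon this share was 0.909, 0.910 and 0.889 in untreated control cells, 0.891, 0.907 and 0.922 in untreated depleted cells, and 0.814, 0.818 and 0.820 in treated depleted cells. The treated depleted libraries lay below those of the other 2 groups, treated control cells not being analysed for this pair, and the share fell by 0.0891 from untreated depleted cells (log2 odds −1.09, adjusted p = 0.0171), on 155 to 229 reads of the 83-nt and 13 to 34 of the 55-nt exon per library. Untreated control and depleted cells were not shown to differ (adjusted p = 0.999). The call was lost without untreated library c or any single treated library (adjusted p 0.0503 to 0.0911).

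For the pair with the 50-nt exon the share was 0.870, 0.867 and 0.849 in treated control cells, 0.834, 0.859 and 0.860 in untreated depleted cells and 0.732, 0.784 and 0.764 in treated depleted cells. Treated depleted cells were 0.102 lower than treated control cells (log2 odds −0.96, adjusted p = 0.00183), and this call was lost without treated depleted library a (adjusted p = 0.0559). Against untreated depleted cells the difference was −0.0906 (adjusted p = 0.0566). Both pairs share the reads of the 83-nt exon and are not independent. The CFLAR cassette exon with the most reads was included at 0.988 to 1.000 in every library (adjusted p 0.701 to 0.959).

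TNFSF10, the ligand TRAIL (chr3:172223298-172241297, minus strand), was near the detection limit. It had 9, 148 and 18 counts in untreated control cells and 9, 38 and 13 in treated ones, and 43, 25 and 29 counts in untreated against 10, 12 and 5 in treated depleted cells. Replicate 2 of shControl held most of the counts of its groups, and the depleted groups did not overlap. The log2 effect of Cisplatin was −1.66 (SE 0.82, adjusted p = 0.104) in control and −1.58 (SE 0.93, adjusted p = 0.161) in depleted cells, and pooled over both it was −1.62 (SE 0.59, adjusted p = 0.0253). With a replicate block within shControl, whose pairing by number is uncertain, the effect in control cells was −1.36 (adjusted p = 0.00786). Without untreated replicate 2 of shControl it turned to 0.38 in control cells and to −0.70 (adjusted p = 0.191) in the pooled model. Without replicate 2 of both conditions the fall in depleted cells was −1.57 (adjusted p = 0.000681), and untreated depleted cells were higher than control cells by 1.29 (adjusted p = 0.0091), where the difference with all libraries was −0.75 (adjusted p = 0.508). The level of TNFSF10 in control cells was thus set by 1 library.

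TNFRSF10A and TNFRSF10B, the TRAIL receptors with a death domain, lie close together on chromosome 8 (chr8:23047965-23082639 and chr8:22877646-22926692, both on the minus strand). Between them lie the decoys TNFRSF10C and TNFRSF10D, which bind TRAIL without passing on a full death signal. TNFRSF10A had 26.9, 17.4 and 27.3 CPM in untreated control cells and 97.0, 92.3 and 94.9 CPM in treated ones, and went from 29.6, 29.1 and 28.2 CPM to 103, 101 and 105 CPM in depleted cells. The groups lay far apart, and the rise was 3.97-fold in control cells (log2 1.99, SE 0.14, adjusted p = 1.7e-07) and 3.55-fold in depleted cells (log2 1.83, SE 0.13, adjusted p = 3.05e-07). The depletion difference was 0.28 (adjusted p = 0.137) in untreated and 0.12 (95% interval −0.13 to 0.37) in treated cells. The Cisplatin effects differed by −0.16 (−0.52 to 0.20), which did not pass the test.

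TNFRSF10B, also called DR5, rose less in depleted than in control cells. It had 223, 226 and 215 CPM in untreated control cells and 663, 807 and 703 CPM in treated ones, and went from 259.9, 273 and 258 CPM to 607, 621 and 569 CPM in depleted cells. Depleted cells thus started higher and ended lower, with no overlap at either point. The rise was 3.27-fold in control cells (log2 1.71, SE 0.08, adjusted p = 8.52e-09) and 2.27-fold in depleted cells (log2 1.19, SE 0.08, adjusted p = 1.4e-07), and the difference between the effects was −0.53 (SE 0.11, adjusted p = 0.0246). The depletion difference was 0.25 (SE 0.08, adjusted p = 0.0323) in untreated cells and −0.27 (SE 0.08, adjusted p = 0.0145) in treated cells. The difference between the effects kept its sign in all 21 settings and passed the test in 15. It missed it without untreated control replicate 3, without any single untreated depleted library, and without treated depleted replicate 1 or 3 (adjusted p 0.0528 to 0.0674). The untreated difference passed in 13 of 21 settings.

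TNFRSF10D (chr8:22993101-23021543, minus strand), a decoy receptor with a truncated death domain, went the other way and showed the largest difference between the 2 Cisplatin effects in the set. It had 42.8, 34.6 and 39.8 CPM in untreated control cells and 103, 73.3 and 97.4 CPM in treated ones. In depleted cells it went from 49.2, 44.3 and 39.4 CPM to 232, 204 and 327 CPM, and each treated depleted library was at least as high as 204 CPM, above every other library. The rise was 2.34-fold in control cells (log2 1.22, SE 0.17, adjusted p = 8.23e-05) and 5.74-fold in depleted cells (log2 2.52, SE 0.18, adjusted p = 2.45e-07). The difference between the effects was 1.30 (SE 0.24, 2.46-fold, adjusted p = 0.0169) and passed in all 21 settings (adjusted p 6.24e-05 to 0.0496). Treated depleted cells held 2.79-fold more TNFRSF10D RNA than treated control cells (log2 1.48, SE 0.17, adjusted p = 7.03e-05), while untreated cells differed by 0.18 (95% interval −0.16 to 0.52, adjusted p = 0.467).

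TNFRSF10C (chr8:22941868-22974950, plus strand), a decoy held in the membrane by a lipid anchor, was barely counted. It had 14, 19 and 9 counts in untreated and 6, 22 and 22 in treated control cells, and 8, 8 and 7 in untreated and 13, 16 and 19 in treated depleted cells. The depleted groups did not overlap, and the fitted log2 rise there was 1.33 (SE 0.45, adjusted p = 0.0224), against 0.07 (adjusted p = 0.895) in control cells. With DESeq2 the former missed the limit (adjusted p = 0.0509), and it did so without any single untreated depleted library and without treated depleted replicate 3. The difference between the effects, 1.26 (SE 0.61), did not pass the test. TNFRSF10C shares its strand and span with 2 other annotated genes, and the exonic reads that HTSeq counted for it, 99 to 178 per library, exceeded the STAR counts of 6 to 22, so its level is uncertain.

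TNFRSF1A, the main TNF receptor (chr12:6437923-6451280, minus strand), was the only gene of the set that fell with Cisplatin in both kinds of cells past the test. It had 357, 309 and 383 CPM in untreated and 195, 189.5 and 195 CPM in treated control cells, and 323, 314 and 321 CPM in untreated and 176, 168 and 157 CPM in treated depleted cells. The groups did not overlap, and the fall was 1.81-fold in control cells (log2 −0.86, SE 0.08, adjusted p = 2.66e-06) and 1.91-fold in depleted cells (log2 −0.93, SE 0.08, adjusted p = 1.18e-06). The depletion difference in treated cells was −0.21 (SE 0.08, adjusted p = 0.0537), and it passed in 10 of 21 settings, DESeq2 among them (adjusted p = 0.0143). In untreated cells the depletion difference was −0.13 (95% interval −0.29 to 0.02).

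**Figure D2:**
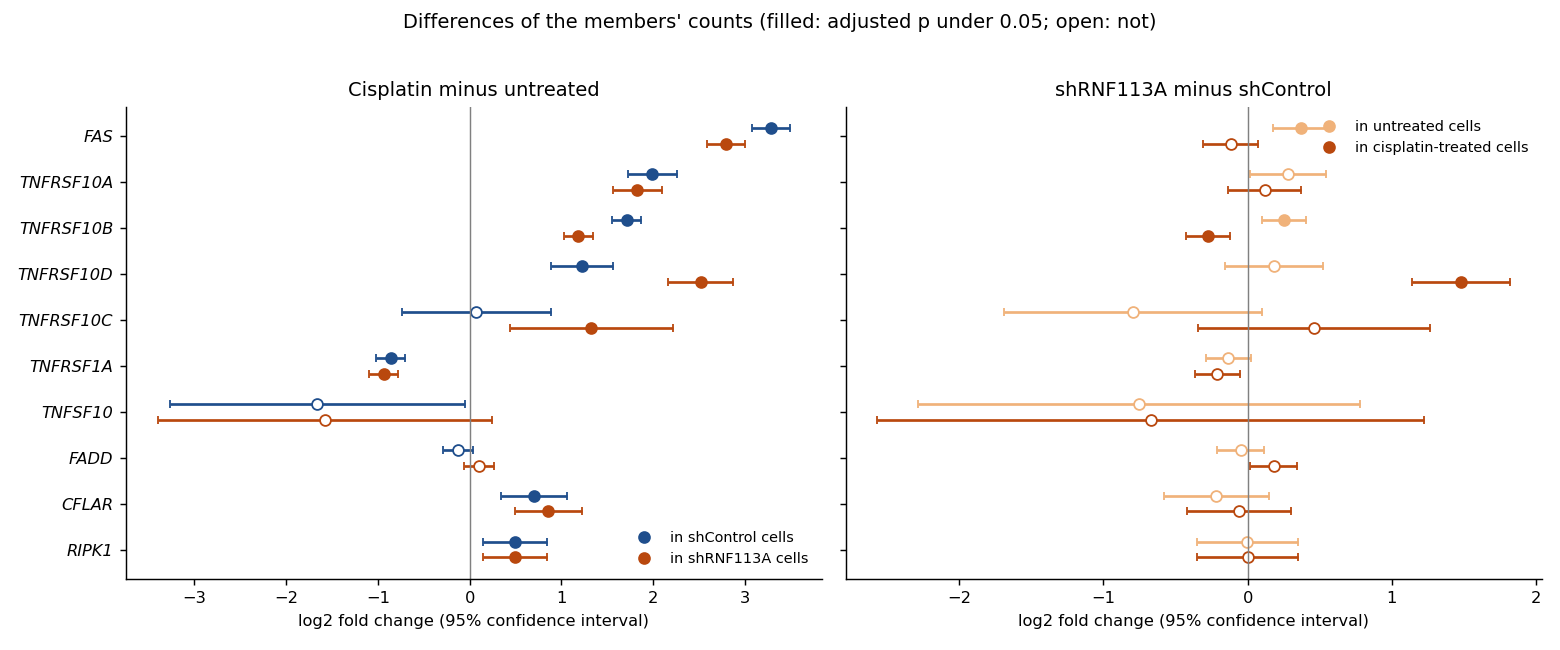
Log2 fold changes of the 10 genes (edgeR, all 12 libraries), with filled points where the test was passed. On the left is Cisplatin against untreated in each kind of cell, on the right depleted against control cells in each drug condition. Bars are approximate 95% intervals from the SE and the normal quantile, narrower than the test implies. The Cisplatin effect runs from 3.28 for FAS to −1.66 for TNFSF10 in control cells, and only TNFRSF10D is past 1 upon depletion, at 1.48 in treated cells.

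Levels of different genes were compared as RPKM, the reads of a library scaled to its depth and to each kilobase of merged exon length. In untreated control cells TNFRSF1A was the highest at 104 ± 11.2 (SD, n = 3), followed by TNFRSF10B at 53.4 ± 1.29 and FADD at 32.0 ± 1.99. TNFRSF10D followed at 11 ± 1.16, TNFRSF10A at 8.28 ± 1.95, RIPK1 at 8.18 ± 1.94, FAS at 5.68 ± 0.83 and CFLAR at 3.91 ± 0.82, while TNFSF10 and TNFRSF10C stood below 1. TNFRSF10A and RIPK1 overlapped, as did RIPK1 and FAS, and TNFSF10 and TNFRSF10C, so these neighbours were not set apart by their libraries. CFLAR was divided by 21427 nt of merged exons, which lowers its level against genes with compact annotation.

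After Cisplatin TNFRSF10B led in both kinds of cells, at 175 ± 18.0 in control and 144.5 ± 6.48 in depleted cells. In treated control cells TNFRSF1A at 57.6 ± 0.90 and FAS at 55.3 ± 4.07 came next and overlapped, and TNFRSF10A at 32.9 ± 0.83, FADD at 29.3 ± 3.2 and TNFRSF10D at 25.8 ± 4.44 each overlapped its neighbour. In treated depleted cells TNFRSF10D was next at 71.8 ± 18.1, ahead of FAS at 51.0 ± 2.29 and TNFRSF1A at 49.8 ± 2.97, which overlapped. The decoy thus stood at place 6 in treated control cells and at place 2 in treated depleted cells; with the longest transcript as the length it was at place 3 there. In untreated depleted cells the order was the same as in untreated control cells. With HTSeq exonic counts TNFRSF10A was higher, at 47.7 in treated control and 51.3 in treated depleted cells, where FAS stood at 51.1.

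**Figure D3:**
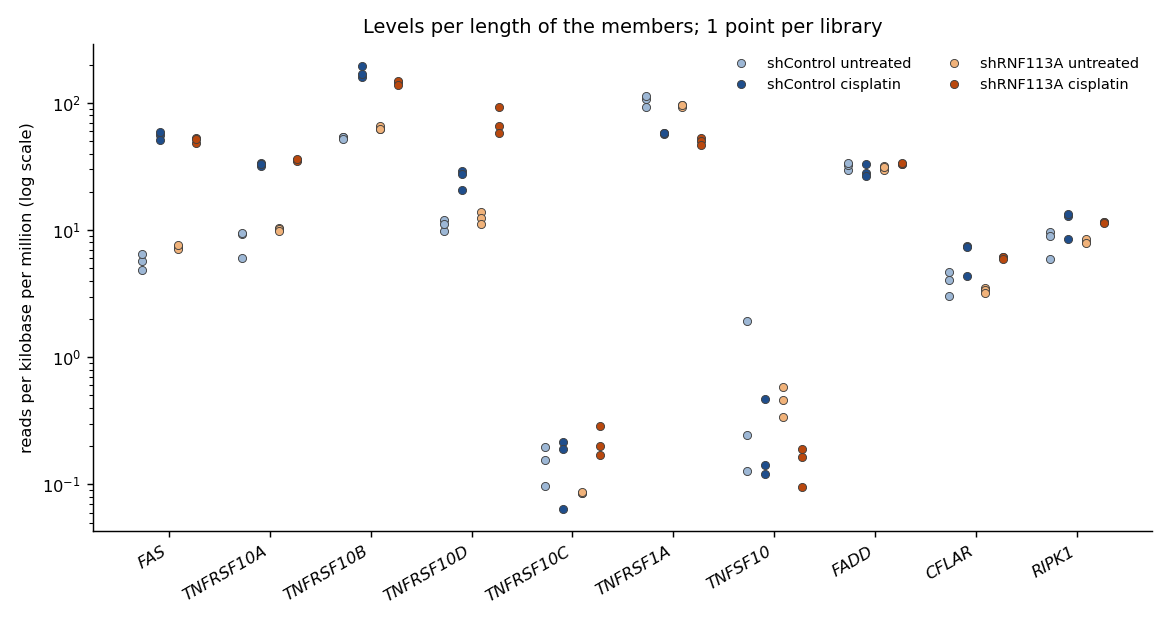
RPKM (log axis) of the 10 genes in the 4 conditions, with 1 point per library. TNFRSF1A leads in untreated cells, at a mean of 104 RPKM in control and 95.2 in depleted cells, TNFRSF10B leads after Cisplatin, at 175 and 144.5 RPKM, and TNFSF10 and TNFRSF10C stay below 1 RPKM on average in each condition.

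Across the set, 75 distinct splicing events were listed: 18 of FAS, 14 of RIPK1, 11 of TNFRSF10A, 10 each of CFLAR and TNFRSF10B, 7 of TNFRSF1A, 4 of TNFRSF10D and 1 of TNFSF10, and 0 of TNFRSF10C and FADD. In control cells upon Cisplatin 1 of 48 tested events changed (background 0.463%) and in depleted cells 1 of 69 (2.27%). Upon depletion 0 of 46 changed in untreated cells (0.786%) and 3 of 61 in treated cells (2.08%). No event was called with inclusion levels at least 0.2 apart, against backgrounds of 0.0622%, 0.259%, 0.0515% and 0.156% in the same order. All changed events were in CFLAR and TNFRSF10B.

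For TNFRSF10B the changed events rest on very few reads of a rare form. An alternative 5′ splice site was skipped in 4, 1 and 2 reads of untreated control cells, 0, 0 and 0 of treated ones, 6, 2 and 2 of untreated depleted cells and 4, 3 and 5 of treated depleted cells, against 898 to 4178 reads of the common form per library. Inclusion levels were 0.980 to 1.000 throughout. The comparison of treated control with untreated control cells gave an adjusted p of 0.00773 and that with treated depleted cells 0.0022, and a cassette exon that shares the skipping reads gave 0.0285 in the latter. The element of 87 nt that sets the long form of TNFRSF10B apart was kept at 0.602 to 0.649 in untreated control, 0.624 to 0.655 in treated control, 0.594 to 0.677 in untreated depleted and 0.654 to 0.687 in treated depleted cells. It passed the test in no comparison (adjusted p 0.646 to 0.946).

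**Figure D4:**
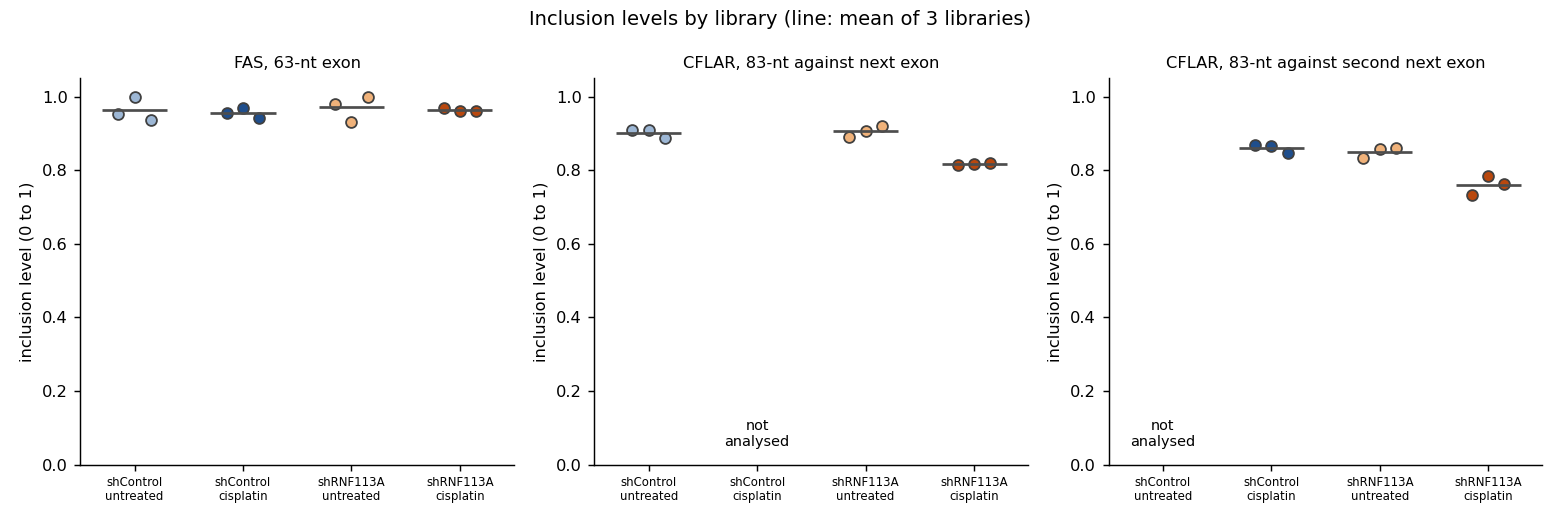
Inclusion levels per library of the FAS exon and the CFLAR exon pairs, by condition; each point is 1 library and each line the mean of 3, and 1 condition per CFLAR pair was not analysed. The CFLAR pairs drop to 0.732 to 0.820 in treated depleted cells, while the FAS exon stays at 0.932 or above in every library.

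The share of intronic reads rose upon depletion for most genes of the set in treated cells, as it did for most genes tested. It is the percent of a gene's reads, counted with HTSeq over the whole gene, that fall outside its exons, and it was tested as intronic against exonic reads for 9 of the 10 genes among 9557. Upon depletion it rose for 5 genes in untreated cells against 34.5% of all genes changed, a count that fell to 0 without untreated depleted replicate 2, and for 8 in treated cells, about the background of 88.3%. Upon Cisplatin it rose for 3 genes in control cells (19.8%) and for 4 in depleted cells (70.3%). The median log2 change of the ratio over the 9 genes was 0.67 and 1.15 for the depletion in untreated and treated cells and −0.01 and 0.56 for Cisplatin in control and depleted cells, beside 0.47, 0.96, 0.28 and 0.74 over all genes tested. No gene of the set fell past the test.

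TNFRSF1A had the largest log2 ratios of the set in 2 of the 4 comparisons, Cisplatin in depleted cells and the depletion in treated cells. Its intronic share was 1.53, 1.29 and 1.46% in untreated and 1.97, 1.97 and 2.93% in treated control cells, and 2.59, 2.57 and 2.21% in untreated and 6.24, 5.1 and 7.18% in treated depleted cells. It rose in all 4 comparisons, with log2 ratios of 0.68 (adjusted p = 0.0185) and 1.37 (adjusted p = 4.91e-06) for Cisplatin in control and depleted cells and 0.79 (adjusted p = 0.00892) and 1.49 (adjusted p = 4.76e-06) for the depletion. FAS also rose in all 4, from 4.24, 3.08 and 6.24% in untreated control cells to 7.5, 6.23 and 9.01% with Cisplatin, and from 8.46, 8.95 and 5.95% in untreated to 12.3, 12.5 and 13.2% in treated depleted cells. Its control groups overlapped at 6.24 and 6.23%, and the depletion effect was 0.81 (adjusted p = 0.032) without and 0.83 (adjusted p = 0.000937) with the drug. Omitting replicate 2 of shControl, the untreated one was 0.60 (adjusted p = 0.0656).

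CFLAR had 8.86, 8.16 and 9.58% intronic reads in untreated and 6.06, 7.22 and 7.87% in treated control cells, but 12.6, 14.4 and 11.3% and 14.7, 13.8 and 14.6% in the depleted ones. Depleted cells were higher in both drug conditions (log2 ratio 0.59, adjusted p = 0.0185, and 1.15, adjusted p = 1.44e-05), and Cisplatin passed the test in neither kind of cell. FADD followed the same order, with 2.78 to 5.34% and 2.86 to 4.31% in control and 5.85 to 7.53% and 7 to 8.47% in depleted cells (0.84, adjusted p = 0.0147, and 1.16, adjusted p = 0.000188). RIPK1 rose from 6.08 to 7.24% in treated control to 12.2 to 13.1% in treated depleted cells (1.04, adjusted p = 4.69e-05). The TRAIL receptors TNFRSF10A and TNFRSF10B stood at 3.57 to 7.21% and 1.55 to 3.46% in treated control and at 10.8 to 11.9% and 5.05 to 6.37% in treated depleted cells (1.21 and 1.28, adjusted p = 5.78e-05 and 3.71e-05).

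TNFRSF10D was the exception in treated cells, at 8.5, 7.12 and 12.7% in control and 10.3, 10.8 and 8.64% in depleted libraries (log2 ratio 0.10, adjusted p = 0.674), although its RNA rose most upon depletion there. TNFRSF10C had 43.3 to 75.1% intronic reads, so most of the reads over this gene fell outside its exons in every library except untreated control replicate 2. Over all genes together the intronic share was 4.35 to 4.82% in untreated and 4.65 to 7.16% in treated control cells and 5.75 to 6.63% and 9.93 to 10.3% in the depleted ones, which moves with the values above, and its part in them was not tested. Without untreated depleted replicate 2 the depletion changed 444 of all genes in untreated cells. The count for Cisplatin in control cells was 0 of 9 without untreated control replicate 2, and 4 of 9 when replicate 2 was left out of both control groups. The shares over all genes in these settings are not given here, so these counts are no result about the set.

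**Figure D5:**
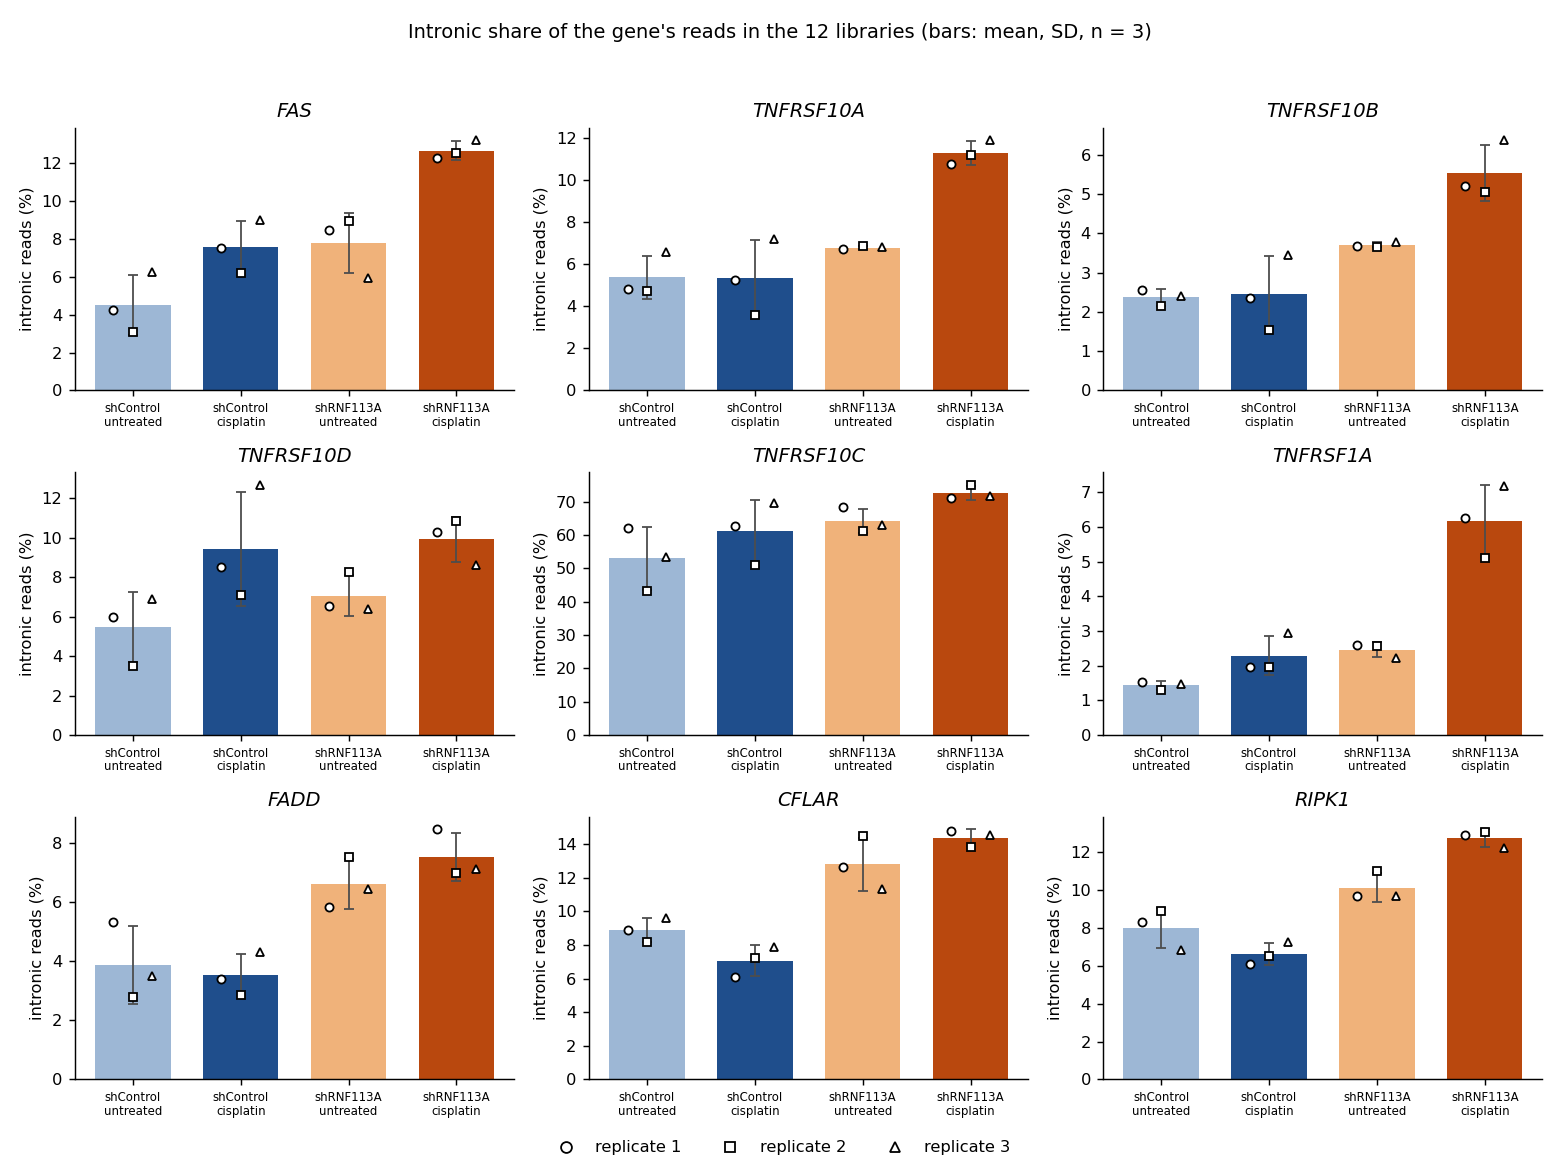
Percent of each gene's reads that are intronic, for the 9 genes tested, by condition; symbols mark replicates 1, 2 and 3, bars the mean and whiskers the SD of 3 libraries. In treated depleted cells TNFRSF1A reaches 5.1 to 7.18% and CFLAR 13.8 to 14.7%, above all treated control libraries, while TNFRSF10D does not separate treated depleted from treated control cells.

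A wider list of 36 genes of the same pathway, of which 33 passed the filter on low counts, moved in both directions. In control cells Cisplatin raised 17 and lowered 4 of them, and in depleted cells it raised 19 and lowered 5, so 21 and 24 of 33 changed beside backgrounds of 55.0% and 60.2%. The depletion raised 5 and lowered 8 in untreated cells, 13 of 33 beside 27.4%, and raised 7 and lowered 7 in treated cells, 14 of 33 and so about the background of 42.9%. Leaving out replicate 2 of shControl in both conditions gave 6 and 11 beside 41.8%, and 15 and 7 beside 55.6%. For Cisplatin it gave 17 raised and 5 lowered in control cells beside 60.9%, and 21 and 5 in depleted cells beside 71.4%. Initiator CASP8 rose by 0.82 and 0.81 on the log2 scale in control and depleted cells (adjusted p = 0.000451 and 0.000444), and CASP10 by 1.61 and 1.34 (adjusted p = 1.31e-06 and 6.32e-06). BID, the CASP8 substrate that links death receptors to mitochondria, stood at 0.07 and 0.06 (adjusted p = 0.427 and 0.466).

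Of the other ligands, FASLG, TNF and LTA had few counts and TNFSF15 more. FASLG had 0 or 1 count in every library. TNF had 0, 1 and 0 counts in untreated and 3, 27 and 4 in treated control cells, and 0, 3 and 1 against 14, 17 and 7 in depleted cells, and passed the test in both (adjusted p = 0.0107 and 0.011). Replicate 2 held most of the TNF counts of treated control cells, and no value without it is given for single genes of this list. LTA had 0 to 5 counts in the other groups and 8, 9 and 9 in treated depleted cells (adjusted p = 0.00868 against untreated and 0.0222 against treated control cells). TNFSF15 had 38, 81 and 53 counts in untreated and 103, 210 and 151 in treated control cells, and 199, 237 and 156 against 153, 163 and 145 in depleted cells. It rose by 1.28 with Cisplatin in control cells and by 1.84 upon depletion in untreated cells.

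Of 6 further TNF receptor family genes tested, 4 changed with Cisplatin in control and 5 in depleted cells. The shares of all genes changed were 55.0% and 60.2%. EDA2R, a receptor of ectodysplasin A2, rose by 2.14 and 1.94, NGFR, the low-affinity neurotrophin receptor, by 4.31 and 4.38 from at most 26 counts per untreated library, and TNFRSF25 by 1.06 and 1.40, while EDAR fell by 1.51 and 2.96 (each value in control and depleted cells). TNFRSF21, death receptor 6, stood at a mean of 61.2 CPM in untreated and 44.5 CPM in treated control cells, which overlapped (log2 −0.46, adjusted p = 0.0593), and went from 93.2 to 52.0 CPM in depleted cells (log2 −0.84, adjusted p = 0.00232). Its lowest untreated control library was replicate 2, at 40.4 CPM. TNFRSF25 was also higher upon depletion, by 1.37 and 1.72, and EDAR by 2.66 in untreated cells. Of 11 adaptors and ubiquitin enzymes of the TNF receptor complex, 5 rose with Cisplatin in control and 6 in depleted cells. None fell past the test. With the same 55.0% and 60.2% of all genes changed, neither count lay above the background. TNFAIP3 rose by 2.76 and 2.89, BIRC3 by 1.85 and 1.71 and CYLD by 1.09 and 1.58, while RNF31, SHARPIN and XIAP stood at 0.04, −0.05 and 0.07 in control cells and did not pass the test there. In depleted cells the mean of RNF31 went from 51.0 to 66.5 CPM with Cisplatin. SHARPIN went from 66.2 to 70.2 CPM there and XIAP from 68.8 to 65.4 CPM. The TNF receptor associated TRAF1 rose by 2.95 and 2.78, and the adaptor TRADD did not pass the test (−0.02 and 0.25, adjusted p = 0.905 and 0.0677). FAF1, a FAS-associated factor, fell most, from 53.7 to 70.9 CPM to 8.47 to 10.8 CPM in control cells and from 56.3 to 58.5 CPM to 5.31 to 7.85 CPM in depleted cells (log2 −2.76 and −3.09). PEA15, which binds FADD, rose by 1.42 in depleted cells and by 0.85 in control cells. PTPN13, a FAS-associated phosphatase, was lower upon depletion in treated cells by log2 −1.18. In untreated cells PTPN13 also stood lower, at 22.3 to 30.9 CPM in depleted against 48.1 to 54.8 CPM in control libraries.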

How the data were processed

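RNA of 12 A549 libraries was sequenced as stranded, paired-end reads. Per the labels and the study's methods, the authors discarded rRNA, tRNA and mitochondrial reads, aligned the rest to hg19 with STAR 2.5.2b after demultiplexing with bcl2fastq 2.17, and deposited raw counts per gene. They also deposited HTSeq counts on exons and on whole protein-coding genes, and rMATS tables of raw inclusion and skipping reads; the fold changes, p-values and other comparison columns of those tables were not used.

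Counts of the gene's strand were tested with edgeR 4.0.16 in R 4.3.3 (TMM scaling, filterByExpr, quasi-likelihood test, Benjamini-Hochberg adjustment over 15352 genes), with an additive model of both factors for pooled effects and a model with their interaction for the interaction and the single-condition effects. The study's methods used both models with DESeq2, the second for the interaction term, and the single-condition contrasts were added here. The same package tested inclusion against skipping reads (at least 20 reads per event) and intronic against exonic reads (at least 10 of each in every library), with a term per library. Per-length levels used merged exon lengths of the authors' annotation. Scripts were tested on simulated data. Exon sequences were read from GRCh37. Figures used matplotlib 3.10.9.

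All 10 genes were named, as were the pathway genes called in a single-condition comparison with FASLG, TNF, CASP8, CASP10, BID and TRADD, and every changed event with at least 20 reads in each library; the wider list was fixed by role. The members and lists were chosen with earlier results of these data known. Over 9779 genes, libraries of the same number deviated from their group means with correlations of 0.63, 0.73 and 0.48 between the 2 control groups, which were therefore also compared as pairs, and with 0.41, −0.07 and 0.30 between the depleted groups, which were not. Untreated control replicate 3 correlated more with a treated control library of another number. Since replicate 2 stood apart in both control groups, these correlations cannot show whether replicates 1 and 3 are paired. The pairing rests on these values and is uncertain. Alternatives were other scalings, filters, counts and tools, a replicate block and the omission of libraries. Leaving out replicate 2 of shControl and blocking within shControl were chosen after seeing the data. A merged transcript annotation was not used here, and some genes of the lists are not reported here.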

Additional observations from a re-analysis of the deposited data

Results flagged for a closer look

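The effect of Cisplatin differed between depleted and control cells by −0.53 on the log2 scale for TNFRSF10B (adjusted p = 0.0246) and by 1.30 for TNFRSF10D (adjusted p = 0.0169), by edgeR's quasi-likelihood test of the interaction. These opposite differences concern genes for a receptor with a death domain and a decoy that lie close together, with TNFRSF10C between them. Their 3 libraries per group were separated after Cisplatin in both cases, TNFRSF10B at 569 to 621 CPM in depleted against 663 to 807 CPM in control cells and TNFRSF10D at 204 to 327 against 73.3 to 103 CPM. Such a separation held for 57.7% of all genes tested. The difference for TNFRSF10B passed in 15 of 21 settings and that for TNFRSF10D in all 21.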

How the results depend on the processing

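Among single genes 889 of 1002 expression values kept direction and side of the limit, 38 passed it newly, 36 lost it and 39 changed sign; of the values of intronic shares 353 kept their side, 21 passed newly and 31 lost it, and 25 of 40 splicing values kept their call. RIPK1 upon depletion lay so near 0 that its sign turned. For both drug conditions together it was 0.023 with library size, 0.0049 with at least 10 counts in every library and 0.027 with the replicate block. In untreated cells it was 0.028 with library size, 0.0011 without a filter, 0.00037 with at least 10 counts and 0.027 with the replicate block. In treated cells it was −0.021 with unstranded counts, −0.037 with RLE, −0.041 with DESeq2, −0.014 without a filter and −0.18 without replicate 2 of shControl in both conditions. TNFSF10 upon depletion turned to 0.86 (both conditions) and 1.29 (untreated) without that replicate.

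Requiring at least 10 counts cut the genes called to 2121, 824, 789 and 1103 for Cisplatin pooled, depletion pooled, depletion untreated and depletion treated, from 3298, 1687, 1329 and 1891. This filter left fewer genes to test, and its part in the drop was not tested. Without replicate 2 of shControl in both conditions, 522 genes showed a called interaction and 4 members a changed one (17% of all genes). Upon depletion 5 members changed in the pooled model (54.5% of all genes), 6 in untreated cells (41.8%, with 1 called against 10.1%) and 7 in treated cells (55.6%). Intronic shares changed for 3630 genes with Cisplatin in control cells and for 7 members in depleted cells. The share over all genes for those 7 is not given here. The cause was not tested. A splicing limit of 0.1 gave 149, 688, 183 and 490 events. The last of these, upon depletion in treated cells, were 490 of 93990 events tested, and 1 of 61 member events tested was among them.

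With 1 library left out at a time, the members changed ranged over 6 to 9 and 6 to 9 (Cisplatin in control and depleted cells), 0 to 3 and 1 to 4 (depletion in untreated and treated cells), 1 to 3 (depletion pooled) and 1 to 3 (interaction, with 75 to 420 genes called). Intronic shares ranged over 1135 to 4500 genes and 0 to 4 members (Cisplatin in control cells), 3 to 7 members (Cisplatin in depleted cells) and 444 to 5200 genes and 0 to 7 members (depletion untreated). Called splicing events ranged over 21 to 35, 142 to 246, 25 to 53 and 80 to 190, with 0 to 1, 0 to 1, 0 and 1 to 2 changed member events. The shares of all genes or events changed in each of these settings are not given here, so the member ranges are no result about the set. Depletion values ranged over −0.11 to 0.058 (pooled), −0.18 to 0.13 (untreated) and −0.23 to 0.062 (treated) for RIPK1, −0.996 to 0.28 (pooled) and −1.24 to 1.29 (untreated) for TNFSF10 and −0.32 to 0.016 (treated) for CFLAR, and the Cisplatin effect in control cells over −2.53 to 0.38 for TNFSF10.

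A replicate block over all libraries, whose pairing by number is uncertain, brought 2 more results past the limit. These were the interaction of FAS (−0.49, adjusted p = 0.0471) and the intronic share of TNFRSF10C upon depletion in untreated cells (0.68, adjusted p = 0.0422). The block gave 217 genes with an interaction in place of 196. The block within shControl brought TNFSF10 past it, as given above, and neither block changed another call of the set. No paired analysis was possible for splicing because its tables give no replicate numbers. With library size, the median of all genes moved to 0.15 for Cisplatin in depleted cells, from 0.06.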

Other observations

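Among the wider list, the effect of Cisplatin differed between depleted and control cells for 2 of 33 genes, beside 4.25% of all genes tested. Without replicate 2 of shControl in both conditions it differed upward for 7 and downward for 2, beside 17% of all genes. The count thus depended on that replicate. For DAXX, a FAS-associated protein, the difference with all libraries was 0.53 (adjusted p = 0.0242). DAXX stood at a mean of 58.1 CPM in untreated and 51.9 CPM in treated control cells, and at 62.1 and 80.3 CPM in depleted ones, so that it was higher upon depletion in treated cells (0.63, adjusted p = 0.000112) and not past the test in untreated cells (0.10, adjusted p = 0.39).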
